A study of Mus musculus with 4 samples.

Results

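Cell cycle and DNA replication genes were examined in mouse liver as a list of 38 named genes, out of 48709 genes with an identifier in the count files. The list holds cyclins and cyclin-dependent kinases (CDKs) of the G1 and S phases, CDK inhibitors, genes of replication and nucleotide supply, mitosis genes, cell cycle transcription factors, and the p53 axis with both cyclin G genes. The comparison asks whether livers of DDI2-KO mice show signs of hepatocyte proliferation, with read counts for genes of low expression. Each of the 38 symbols matched an Ensembl identifier. All 38 also passed the filter on low counts of edgeR, which kept 13699 genes, so no member was lost before the test.

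RNA from livers of untreated adult C57BL/6 mice was sequenced as 4 mRNA libraries, 2 of WT mice and 2 of DDI2-KO mice. Both groups were littermates with floxed Ddi2 alleles, and the DDI2-KO mice alone also carried Cre recombinase under the albumin promoter. That promoter is active in hepatocytes. The study used both sexes and gives an age range for its mice, but not the age or sex of each mouse sequenced. The Y-linked genes Ddx3y, Eif2s3y, Kdm5d and Uty had 0 reads in every library, and Xist had 17484 and 11533 reads in WT 1 and 2 and 1230 and 3288 in labelled DDI2-KO 1 and 2. The paper calls its samples biological replicates, so a p-value here measures the spread between samples of a group, and 2 samples a group limit it.

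Reads on genes numbered 34109018 in WT 1, 31532247 in WT 2, 25582344 in labelled DDI2-KO 1 and 22501208 in labelled DDI2-KO 2. Levels are given as reads counted and as CPM, the reads set against the library size after scaling by edgeR's TMM factors. A floor of 3 counts, the smallest level told from 0 here, equals 0.0892 and 0.0970 CPM in WT 1 and 2, and 0.116 and 0.131 CPM in labelled DDI2-KO 1 and 2. Floors and counts cover counting error only.

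Adult hepatocytes rest outside the cell cycle for most of their life and return to it when liver mass is lost. In G1, D-type cyclins bind CDK4 or CDK6 and phosphorylate the retinoblastoma proteins, which frees E2F factors to switch on genes of S phase, while inhibitors such as p27 hold the kinases back. The DREAM complex keeps many replication and mitosis genes silent in resting cells, and FOXM1 and B-MYB activate the mitosis genes late in the cycle, which is why transcripts such as Mki67 and Top2a mark dividing cells.

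The targeted gene, Ddi2 (ENSMUSG00000078515), had 4749 reads in WT 1, 3812 in WT 2, 4068 in labelled DDI2-KO 1 and 3777 in labelled DDI2-KO 2. After scaling, WT had 132 ± 12.6 CPM (SD, n = 2) and the other group 161 ± 5.08 CPM (SD, n = 2), a log2 fold change of 0.28 (SE 0.17, edgeR adjusted p = 0.349). In CPM it was thus not lower in either library that carries the knockout label, and these are called the libraries labelled DDI2-KO, or labelled DDI2-KO for short. Exon 2, the part between the LoxP sites, was not counted on its own in the deposited files, so its loss could not be checked. In addition, 18.3% of the exon bases of Ddi2 are shared with Rsc1a1 on the same strand.

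No member of the list was called: in edgeR's quasi-likelihood test, with p-values adjusted by the Benjamini-Hochberg method over 13699 genes, 0 of 38 were under 0.05, against 2.53% of all genes tested. By direction the shares over all genes were 1.33% higher and 1.20% lower. Other tools gave 1 member with DESeq2 (Cdk1, against 6.86% of all genes), 0 with limma-voom (against 0.993%) and 0 with limma-trend (against 1.01%). In edgeR, 2 members (Cdk1 and Ccng2) were called without a filter on low counts, against 1544 of 21099 genes. With the GC content and length offsets, chosen after seeing the data, these 2 were also called, against 829 of 13699 genes. The log2 fold change of Cdkn1b was -0.64, or -1.04 without labelled DDI2-KO 2, a fit that leaves 1 library in that group. At an unadjusted p under 0.05, edgeR gave 8 members, 21.1% of the list, against 23.5% of all genes. Of these, 5 were higher in labelled DDI2-KO, 13.2% against 12.0%, and 3 were lower, 7.90% against 11.5%. These 8 are Cdk1, Ccng2, Pcna, Ccnd2 and Rrm2 on the higher side and Plk1, Cdkn1b and Ccng1 on the lower side. Without WT 1 or without WT 2 the count of 8 went to 3, and without labelled DDI2-KO 1 or 2 it was 6 and 9.

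In 11 members both labelled DDI2-KO libraries had more than either WT library, 28.95% of the list against 28.0% of all genes. In 8 members both had less, 21.1% against 27.7%, and the groups overlapped in the other 19. The member median log2 fold change was 0.04, with 20 estimates above 0 and 18 below, beside -0.01 over all genes with 6672 above and 7027 below. With upper-quartile scaling the member median was -0.02. Summed over the 38 members, levels were 456 CPM in WT 1, 469.6 in WT 2, 457 in labelled DDI2-KO 1 and 469 in labelled DDI2-KO 2. The 95% interval of the log2 fold change lay between -1 and 1 for 25 members, 65.8% of the list against 61.2% of all genes. Intervals of the other 13 members reached past -1 or 1, so these libraries do not hold them to that range.

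**Figure D1:**
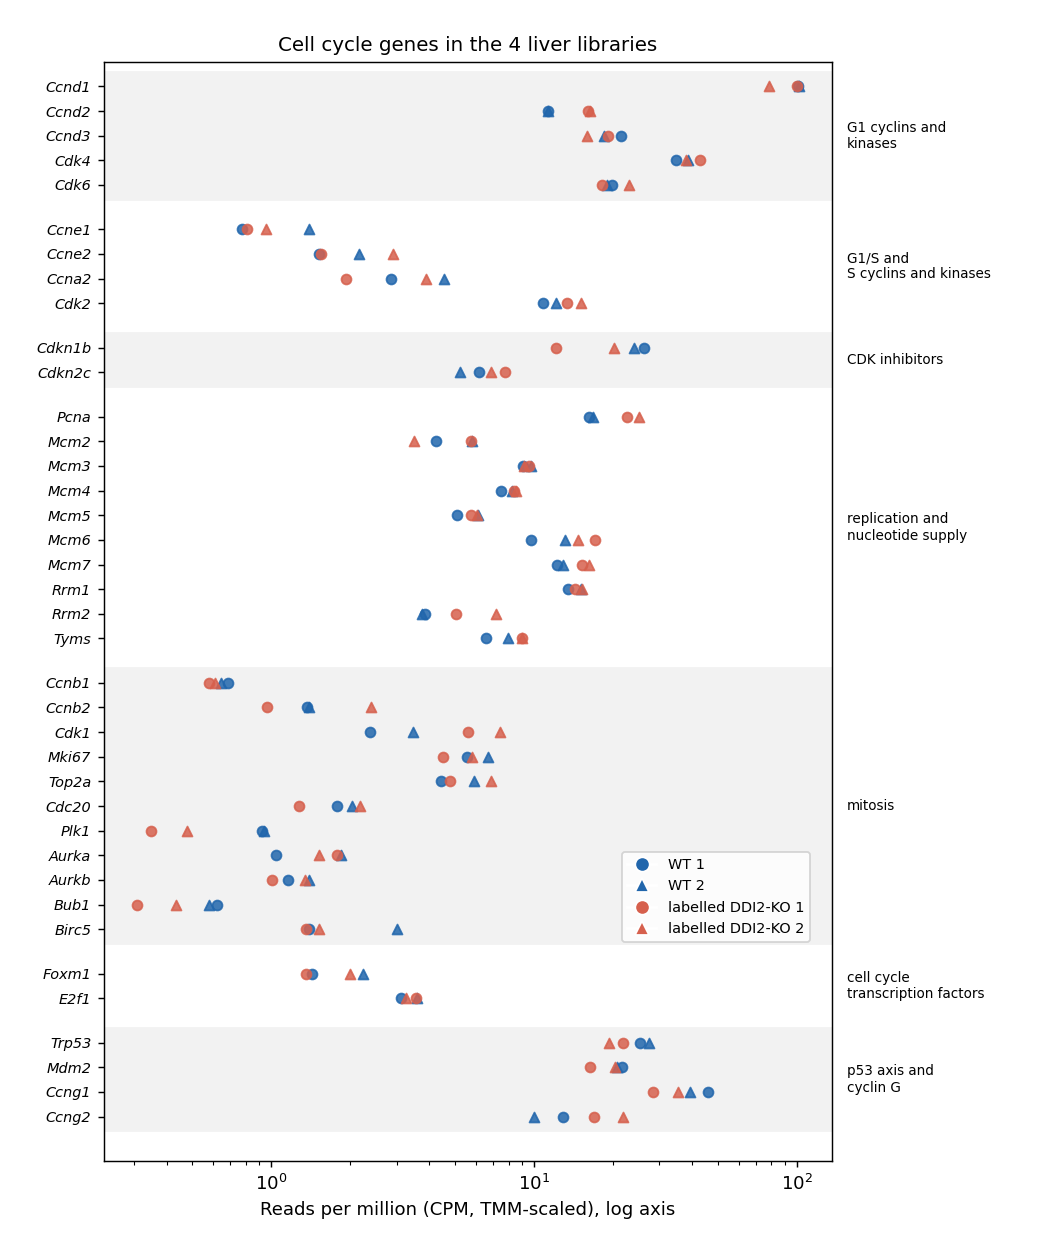
Level of each of the 38 genes in each of the 4 libraries, in CPM on a log axis, grouped by role; blue points are WT, red points are labelled DDI2-KO, circles are library 1 and triangles library 2. Levels run from 0.309 CPM for Bub1 in labelled DDI2-KO 1 to 102 CPM for Ccnd1 in WT 2, and the groups overlap in 19 genes.

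Per kb of exon, the 38 members had a median level of 1.38 CPM per kb, against 2.49 for all genes tested, and 27 of them lay below that all-gene median. Ccnd1 was the highest at 20.2 CPM per kb, followed by Cdk4 at 11.9 and Ccng1 at 10.6. Bub1 and Ccnb1 were the lowest at 0.112 and 0.149 CPM per kb. All 11 mitosis members were below the all-gene median, with a median of 0.561 CPM per kb. Members varied between libraries of 1 group about as other genes did: the median absolute log2 ratio was 0.20 between the WT libraries (all genes 0.19) and 0.29 between those labelled DDI2-KO (all genes 0.27).

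The tissue label was checked against markers, and all 8 hepatocyte markers were measured, summing to 156640 and 180510 CPM in WT 1 and 2 and 145960 and 148970 CPM in labelled DDI2-KO 1 and 2. Alb was the most abundant, and 0 of the 8 passed the test in edgeR (0 also had an unadjusted p under 0.05), with 2 estimates above 0 and 6 below. Without Alb the hepatocyte sums overlapped, at 22311 and 26009 CPM in WT and 23623 and 20536 CPM in labelled DDI2-KO. Sums of a list are over its genes past the filter. Markers of other liver cells were present too, so each member's count sums over several cell types. Kupffer cell markers, 9 of 9 past the filter and led by Cd5l, summed to 829 and 708 CPM in WT and 940 and 783 CPM in labelled DDI2-KO, with 6 estimates above 0 and 3 below. Adgre1, Vsig4 and Cd5l had more CPM in both libraries labelled DDI2-KO than in WT, and Cd68, Marco and C1qa less. T and B cell markers, 8 of 8 and led by Ptprc, summed to 30.2 and 30.7 CPM against 22.3 and 25.7 CPM, with 7 estimates below 0. Ptprc is made by all leukocytes, and without it the groups overlapped, at 9.87 and 12.4 CPM against 8.80 and 10.4 CPM. In bulk liver, fewer cells of a type and less RNA per cell cannot be told apart.

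Stellate cell markers, 6 of 6 and led by Reln, summed to 192 and 213 CPM in WT and 147 and 169.8 CPM in labelled DDI2-KO, with all 6 estimates below 0. Sinusoidal endothelial markers, 6 of 6 and led by Clec4g, summed to 359 and 331 CPM against 330.1 and 329 CPM. Biliary markers, 5 of 6 past the filter and led by Spp1, summed to 56.4 and 52.8 CPM against 70.4 and 68.6 CPM, and overlapped without Spp1. Neutrophil markers, 3 of 7 past the filter and led by Csf3r, summed to 6.93 and 6.83 CPM against 6.41 and 5.87 CPM, with 2 estimates above 0 and 1 below, and overlapped without Csf3r. Ly6g had 0 reads in every library. Whether these lists take part in the values of the cell cycle genes was not tested.

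**Figure D2:**
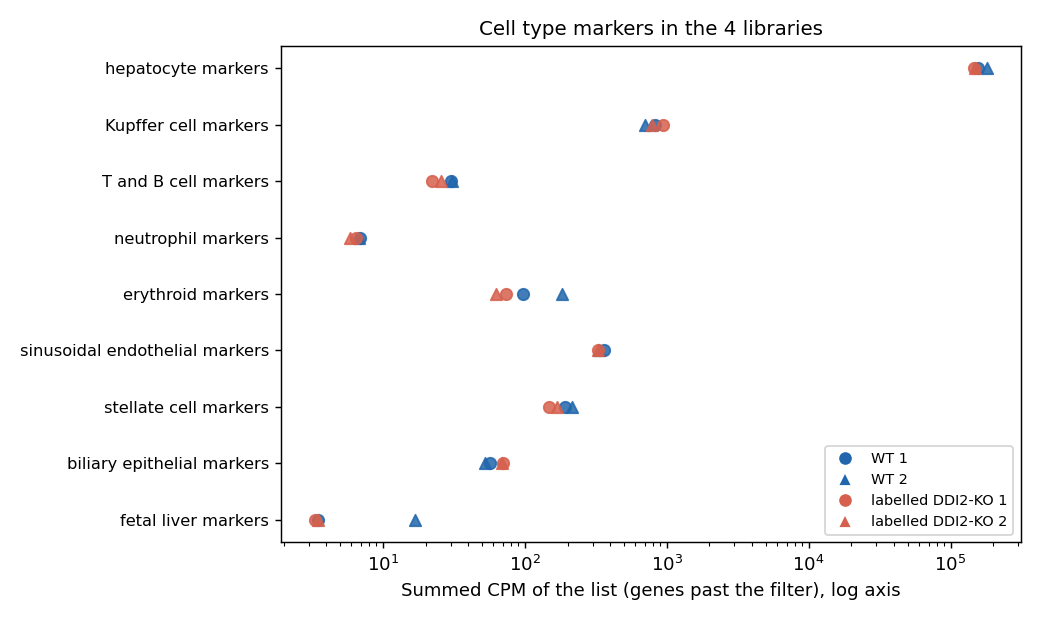
Summed CPM of the genes past the filter of 9 marker lists in each library, on a log axis; blue points are WT, red points are labelled DDI2-KO, circles are library 1 and triangles library 2. Erythroid markers stand at 182 CPM and fetal liver markers at 16.8 CPM in WT 2, above the other 3 libraries.

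The G1 cyclins and kinases were the group with the highest summed level. None of the 5 passed the test in edgeR (1 had an unadjusted p under 0.05), 3 estimates were above 0 and 2 below, and their median log2 fold change was 0.08, or -0.01 without labelled DDI2-KO 2 and -0.0001 with the GC content and length offsets. Their summed level was 188 and 189 CPM in WT 1 and 2 and 196 and 172 CPM in labelled DDI2-KO 1 and 2. Ccnd1, the cyclin that drives hepatocytes through G1 after liver loss, had 3398, 3146, 2584 and 1803 reads in WT 1, WT 2, labelled DDI2-KO 1 and labelled DDI2-KO 2, the order used for every gene from here on. In CPM these were 101, 102, 99.8 and 78.4, so that one library labelled DDI2-KO sat with WT and the other below. Its log2 fold change was -0.19 (SE 0.18, edgeR adjusted p = 0.571), with an interval of -0.59 to 0.22, or -0.01 without labelled DDI2-KO 2 and -0.37 without labelled DDI2-KO 1.

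Ccnd2, a D-type cyclin with the same kinase partners, had 379, 348, 416 and 376 reads. Its levels were 11.3 and 11.3 CPM in WT (11.3 ± 0.00674 CPM, SD, n = 2) and 16.1 and 16.4 CPM in labelled DDI2-KO (16.2 ± 0.205 CPM, SD, n = 2). Each WT library was thus below each labelled DDI2-KO library, by a log2 fold change of 0.53 (SE 0.17, unadjusted p = 0.0151, edgeR adjusted p = 0.122). Its fold change stayed between 0.52 and 0.54 whichever library was left out. Cdk4, a kinase partner of the D cyclins, had 1171, 1194, 1107 and 873 reads, with overlapping groups and a log2 fold change of 0.14 (SE 0.16, edgeR adjusted p = 0.653) that was at 0 with offsets for GC content and length. Cdk6, the alternative kinase, had 665, 588, 471 and 526 reads and a log2 fold change of 0.08 (SE 0.18, edgeR adjusted p = 0.822), or -0.08 without labelled DDI2-KO 2. Ccnd3, the remaining D cyclin, had 720, 573, 496 and 366 reads, and its groups overlapped.

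At the G1/S boundary and in S phase, cyclin E and cyclin A with CDK2 start replication. None of the 4 members passed the test in edgeR (0 had an unadjusted p under 0.05), and 2 estimates lay on each side of 0. The median log2 fold change was -0.01, with its sign turned by library-total scaling (0.04), limma-voom (0.0008), no filter (0.0033), a filter at a mean of 1 CPM (0.25, 3 genes) and by leaving out WT 2 (0.29) or labelled DDI2-KO 1 (0.24). Ccne1 had 26, 43, 21 and 22 reads, and Ccne2 had 51, 67, 40 and 67, both with overlapping groups. The log2 fold change of Ccne2 was 0.27 (SE 0.39, edgeR adjusted p = 0.719), or -0.24 without labelled DDI2-KO 2. Ccna2, which is made in S phase and G2, had 96, 141, 50 and 89 reads. Library 2 held more of it than library 1 in both groups, 4.56 against 2.85 CPM in WT and 3.87 against 1.93 CPM in labelled DDI2-KO. Ccna2 had a log2 fold change of -0.36 (SE 0.39, edgeR adjusted p = 0.626), and 0.02 without WT 2 or 0.07 without labelled DDI2-KO 1. Cdk2 had 363, 374, 345 and 347 reads, with both WT libraries the lower in CPM and a log2 fold change of 0.31 (SE 0.18, edgeR adjusted p = 0.345).

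Of the listed CDK inhibitors, Cdkn1b encodes p27, which binds cyclin E-CDK2 and is plentiful in resting cells. It had 881, 745, 314 and 464 reads, or 26.2, 24.1, 12.1 and 20.2 CPM. In CPM both labelled DDI2-KO libraries were below WT, but they lay far apart from each other (16.2 ± 5.70 CPM, SD, n = 2, against 25.1 ± 1.48 CPM, SD, n = 2, in WT). Its log2 fold change was -0.64 (SE 0.24, unadjusted p = 0.0301, edgeR adjusted p = 0.170). The value depended on 1 library: the log2 fold change was -1.04 without labelled DDI2-KO 2 and -0.31 without labelled DDI2-KO 1. Cdkn1b was called in the first of these fits, each of which leaves 1 library in that group, and not in the main fit. Cdkn2c, which encodes p18, an inhibitor of CDK4 and CDK6, had 207, 162, 200 and 158 reads. After scaling, both libraries labelled DDI2-KO stood above WT, 7.72 and 6.87 CPM against 6.15 and 5.24 CPM, at a log2 fold change of 0.36 (SE 0.22, edgeR adjusted p = 0.354).

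Replication and nucleotide supply was the group with most estimates on the higher side. Of its 10 members 8 had estimates above 0 and 2 below, 6 had no overlap between groups with WT the lower (28.0% of all genes), and 0 were called by edgeR (2 at an unadjusted p under 0.05 and higher, against 12.0% of all genes). The median log2 fold change was 0.21 and stayed above 0 under each scaling and without each library, at 0.11 without WT 1. Summed levels were 88.0 and 99.7 CPM in WT and 113 and 115 CPM in labelled DDI2-KO. Markers of several cell types were also higher in both libraries labelled DDI2-KO, as were 28.0% of all genes. They were Ttr and Hnf4a (hepatocyte), Adgre1, Vsig4 and Cd5l (Kupffer cell), Clec4g, Kdr and Tek (endothelial), Krt19 and Spp1 (biliary) and S100a9 (neutrophil). Of the same lists Alb, Cd68, Marco, C1qa, Stab2, Lyve1 and Csf3r were lower in both, as were 27.7% of all genes. The biliary sums overlapped without Spp1. Among these markers edgeR called Stab2 alone, and their part in this group was not tested.

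Pcna, the sliding clamp of the replication fork, had 545, 519, 586 and 579 reads. In CPM these were 16.2 and 16.8 in WT (16.5 ± 0.415, SD, n = 2) and 22.6 and 25.2 in labelled DDI2-KO (23.9 ± 1.81, SD, n = 2), with no overlap. On the log2 scale the fold change was 0.53 (SE 0.16, unadjusted p = 0.0113, edgeR adjusted p = 0.109). Of the stretches of 50 bases in the Pcna transcript, 31.8% also occur in its pseudogene Pcna-ps2, so its count is uncertain. Rrm2, the regulated subunit of ribonucleotide reductase that is made in S phase, had 129, 116, 131 and 165 reads, or 3.83, 3.75, 5.06 and 7.18 CPM. The groups did not overlap, with a WT mean of 3.79 ± 0.0583 CPM (SD, n = 2) and a labelled DDI2-KO mean of 6.12 ± 1.498 CPM (SD, n = 2). For Rrm2 the log2 fold change was 0.69 (SE 0.25, unadjusted p = 0.0258, edgeR adjusted p = 0.156), or 0.42 without labelled DDI2-KO 2 (unadjusted p = 0.145) and 0.92 without labelled DDI2-KO 1. Rrm1, the large subunit of the same enzyme, had 453, 467, 371 and 350 reads and overlapping groups, with a log2 fold change of 0.05 (SE 0.17, edgeR adjusted p = 0.898) that was -0.01 with upper-quartile scaling and -0.03 without WT 1.

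The Mcm2 to Mcm7 genes encode the ring of the replicative helicase, whose subunits act together, and none was called. Mcm7 had 413, 399, 395 and 372 reads and, after scaling, both libraries labelled DDI2-KO above WT, with a log2 fold change of 0.32 (SE 0.17, edgeR adjusted p = 0.3001). Its transcript shares 34.2% of its 50-base stretches with other annotated genes. Mcm6 had 328, 407, 443 and 338 reads, or 9.75, 13.2, 17.1 and 14.7 CPM, again with no overlap between groups. Mcm4 had 251, 255, 217 and 196 reads and also did not overlap, by a narrow gap of 8.25 CPM in WT 2 to 8.38 CPM in labelled DDI2-KO 1. The other helicase genes overlapped, with 143, 180, 149 and 80 reads for Mcm2, 305, 302, 247 and 211 for Mcm3, and 172, 190, 149 and 140 for Mcm5. Across the 6 helicase genes log2 fold changes ran from -0.12 for Mcm2 to 0.47 for Mcm6, with Mcm2 at 0.12 without WT 2 and 0.20 without labelled DDI2-KO 2. That of Mcm3 was -0.01, or 0.04 with library-total scaling. Tyms, thymidylate synthase, had 220, 247, 234 and 207 reads and stood higher in both libraries labelled DDI2-KO, at 9.04 and 9.004 CPM against 6.54 and 7.99 CPM.

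**Figure D3:**
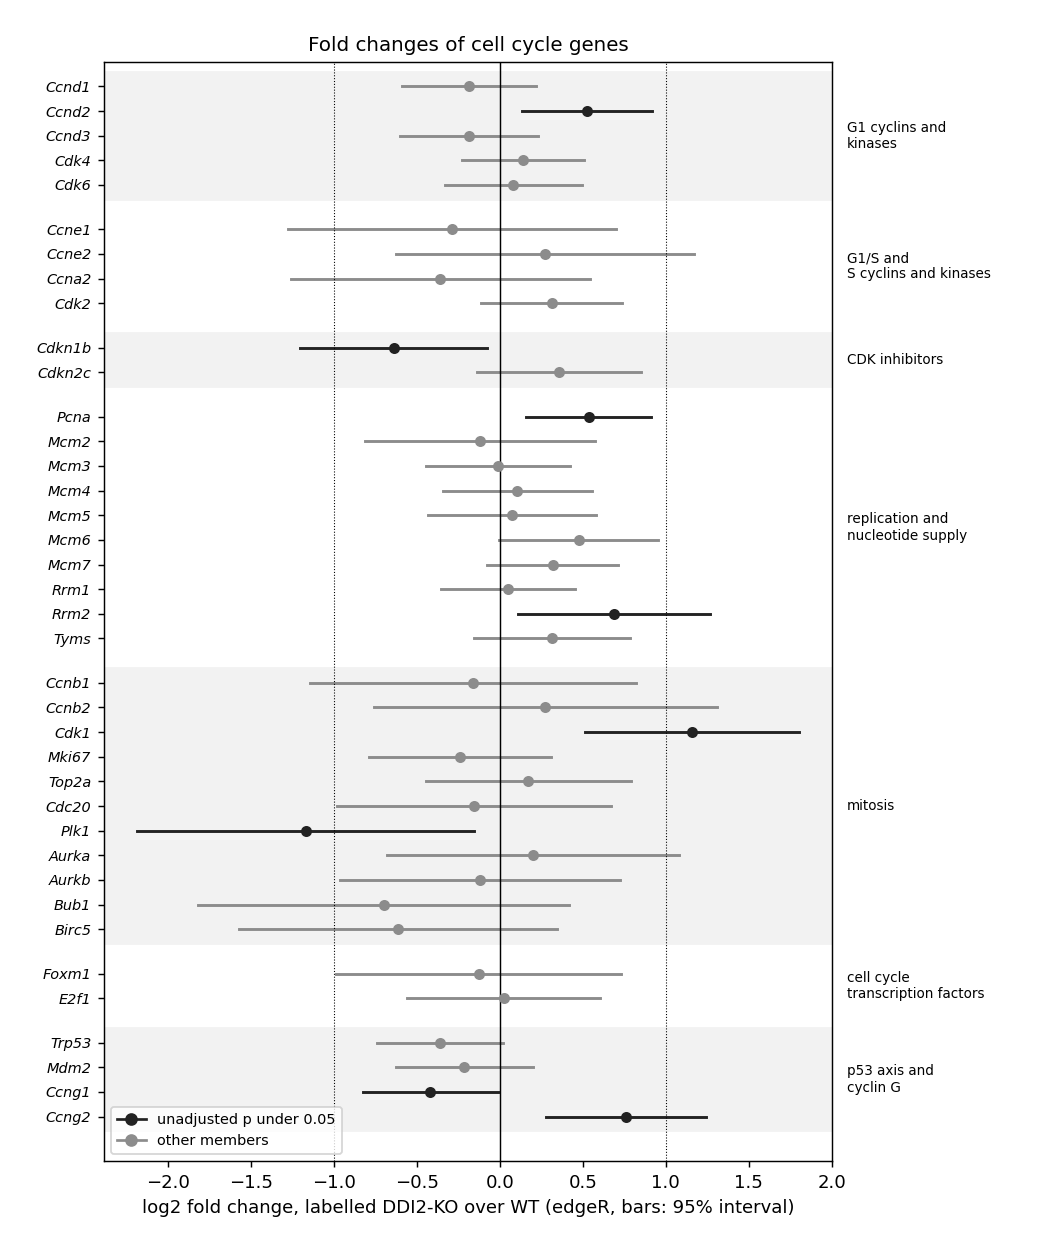
Log2 fold change of each of the 38 genes, labelled DDI2-KO over WT, with its 95% interval from edgeR; black marks the 8 genes with an unadjusted p under 0.05 and grey the other genes. Cdk1 at 1.16 and Plk1 at -1.17 lie farthest from 0, on opposite sides, and the intervals of 25 genes stay between the dotted lines at -1 and 1.

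The mitosis genes had few reads, and the pair of members with the largest fold changes of the whole list, Cdk1 and Plk1, lay on opposite sides. Summed over the 11 genes there were 718, 862, 583 and 704 reads, or 21.3, 27.9, 22.5 and 30.6 CPM, so the groups overlapped and library 2 was the higher in both. None of the 11 was called by edgeR (2 at an unadjusted p under 0.05, 1 on each side). Estimates were above 0 for 4 and below 0 for 7, with a median log2 fold change of -0.15 that turned to 0.02 without WT 2, 0.09 without labelled DDI2-KO 1 and 0.0072 with a filter at a mean of 1 CPM (8 genes). Both libraries labelled DDI2-KO were above WT in 1 member, Cdk1 (28.0% of all genes), and below in 3, Plk1, Bub1 and Ccnb1 (27.7% of all genes).

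Cdk1 (ENSMUSG00000019942, minus strand of chromosome 10 of GRCm38, 69335146 to 69352938) encodes the kinase that starts mitosis with B-type cyclins. It had 80, 107, 145 and 171 reads, or 2.38, 3.46, 5.60 and 7.44 CPM. WT was lower in each library, without overlap, at a WT mean of 2.92 ± 0.766 CPM (SD, n = 2) and a labelled DDI2-KO mean of 6.52 ± 1.30 CPM (SD, n = 2). This gave a log2 fold change of 1.16 (SE 0.28, interval 0.51 to 1.802, unadjusted p = 0.00310), and the edgeR adjusted p of 0.0668 missed the threshold. The adjusted p was under it with DESeq2 (0.0275) and with edgeR without a filter on low counts (0.00305). It was also under it with edgeR and offsets for GC content and length, an alternative chosen after seeing the data (0.0451), within a range of 0.00305 to 0.297 over the alternatives. Leaving out each library in turn gave log2 fold changes from 0.91 to 1.45, and 0% of the 50-base stretches of its transcript occur in other genes.

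Plk1 (ENSMUSG00000030867, plus strand of chromosome 7, 122159439 to 122169873) encodes a kinase of the spindle poles and kinetochores. It had 31, 29, 9 and 11 reads, the last pair above the floor of 3 counts but few. WT was the higher, at 0.922 and 0.938 CPM against 0.348 and 0.478 CPM. Group means were, for WT, 0.930 ± 0.0117 CPM (SD, n = 2) and, for labelled DDI2-KO, 0.413 ± 0.0926 CPM (SD, n = 2). For Plk1 the log2 fold change was -1.17 (SE 0.44, interval -2.19 to -0.15, unadjusted p = 0.0289, edgeR adjusted p = 0.166). A pseudogene, Plk-ps1, accounts for most of the 10.9% of its 50-base stretches that occur elsewhere. Bub1, a spindle checkpoint kinase, lay the same way at 21, 18, 8 and 10 reads, with a log2 fold change of -0.70 and an interval of -1.82 to 0.42.

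Mki67, the source of the Ki-67 antigen used to count dividing cells, had 187, 206, 117 and 134 reads. These were 5.56, 6.66, 4.52 and 5.83 CPM, with overlapping groups. Its log2 fold change was -0.24 (SE 0.24, interval -0.79 to 0.31, edgeR adjusted p = 0.588). Without each library in turn it was below 0, from -0.43 to -0.06. Top2a, the topoisomerase that untangles replicated chromosomes, had 149, 183, 124 and 158 reads, or 4.43, 5.92, 4.79 and 6.87 CPM. Its groups overlapped at a log2 fold change of 0.17 (SE 0.27, interval -0.45 to 0.79, edgeR adjusted p = 0.744), or -0.02 without WT 1 and -0.10 without labelled DDI2-KO 2. For both of these markers the interval leaves out log2 fold changes of -1 and of 1.

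Among the other mitosis genes, the B-type cyclins that activate CDK1 had 23, 20, 15 and 14 reads for Ccnb1 and 46, 43, 25 and 55 for Ccnb2. The Ccnb1 count is uncertain, since 42.1% of its 50-base stretches occur in other genes, mostly Ccnb1-ps. Cdc20, an activator of the anaphase-promoting complex, had 60, 63, 33 and 50 reads, Aurka 35, 57, 46 and 35, and Aurkb 39, 43, 26 and 31, each with overlapping groups. Birc5, which encodes survivin of the chromosomal passenger complex, had 47, 93, 35 and 35 reads. WT 2 stood apart at 3.01 CPM, against 1.40, 1.35 and 1.52 CPM in WT 1 and labelled DDI2-KO 1 and 2, and the log2 fold change of -0.61 became 0.04 without it.

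The summed level of erythroid markers was highest in WT 2, as was Birc5, whereas the mitosis sum was highest in labelled DDI2-KO 2 (30.6 CPM). The erythroid list, led by Hbb-bs, summed to 96.4, 182, 74.3 and 62.5 CPM over 6 genes. All 6 estimates were below 0. Hba-a1 fell, with 862, 1471, 266 and 203 reads and a log2 fold change of -1.94 (SE 0.30, edgeR adjusted p = 0.0338), although 67.5% of its 50-base stretches are shared with Hba-a2. Without labelled DDI2-KO 1 or 2 the edgeR adjusted p of Hba-a1 was 0.196 or 0.213, within a range of 9.49e-08 to 0.213 over the alternatives. Fetal liver markers, 4 of 5 past the filter and led by H19, summed to 3.51, 16.8, 3.32 and 3.48 CPM. The part of erythroid or fetal transcripts in the mitosis values was not tested.

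**Figure D4:**
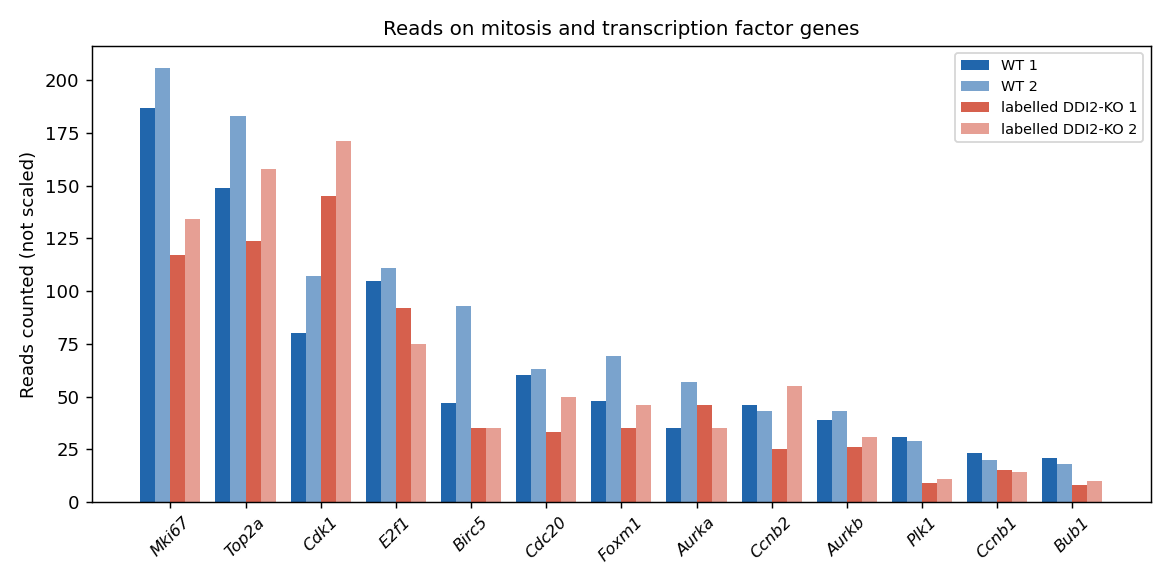
Reads counted, not scaled, on the 11 mitosis genes and the transcription factor genes Foxm1 and E2f1, with 1 bar for each library, in order of total reads. Blue bars are WT and red bars labelled DDI2-KO, the paler bar being library 2; Cdk1 has 80 and 107 reads in WT against 145 and 171, while Plk1 has 31 and 29 against 9 and 11.

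Promoter sequences are shown for Cdk1 and Plk1, the members with the largest fold changes in each direction, and for Mcm6, the replication member with the most matches of the E2F letters. They are the 250 bases before the start of the gene in the RefSeq table of GRCm38.p6, 5′ to 3′ on the gene's strand, at chr10:69352913-69353162 (minus strand), chr7:122159185-122159434 (plus strand) and chr1:128359706-128359955 (minus strand). Capitals mark the letters searched on both strands, namely TTTCCCGC, TTTGGCGC or TTTCGCGC (E2F), TTTGAA or TTCGAA (the CHR element of late cell cycle genes) and CCAAT (the NF-Y box).
Cdk1: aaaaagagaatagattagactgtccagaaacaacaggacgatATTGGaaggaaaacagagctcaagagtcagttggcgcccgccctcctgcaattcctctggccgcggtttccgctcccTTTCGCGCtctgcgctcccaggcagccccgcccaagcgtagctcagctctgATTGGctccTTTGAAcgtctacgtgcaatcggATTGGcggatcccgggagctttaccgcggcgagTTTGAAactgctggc
Plk1: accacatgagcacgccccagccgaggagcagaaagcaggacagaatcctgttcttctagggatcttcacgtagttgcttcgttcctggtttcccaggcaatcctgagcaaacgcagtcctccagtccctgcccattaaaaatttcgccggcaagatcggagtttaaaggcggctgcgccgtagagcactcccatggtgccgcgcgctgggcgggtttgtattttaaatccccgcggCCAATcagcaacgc
Mcm6: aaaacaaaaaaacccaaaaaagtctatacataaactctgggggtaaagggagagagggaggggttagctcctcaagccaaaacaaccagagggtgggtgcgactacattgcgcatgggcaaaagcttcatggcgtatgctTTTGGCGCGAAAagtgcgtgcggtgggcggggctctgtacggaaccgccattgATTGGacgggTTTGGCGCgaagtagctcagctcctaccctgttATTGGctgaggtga
Cdk1 holds 1 match of the E2F letters, 2 of CHR and 3 of CCAAT, Plk1 holds 1 match of CCAAT alone, and Mcm6 holds 3 of E2F, of which 2 on opposite strands overlap, and 2 of CCAAT. Of the 38 members 31 had a promoter in the table, giving 34 windows, and Aurkb, Ccna2, Ccnd1, Ccnd2, Ccne2, Foxm1 and Mcm4 had none. E2F letters stood in 5 member windows, 14.7% against 1.53% of all 32851 windows of the same length. CHR letters stood in 7, 20.6% against 17.1%, and CCAAT in 24, 70.6% against 33.9%. CHR and CCAAT together stood in 7 member windows, 20.6% against 6.02%. Among mitosis windows 5 of 10 had CHR letters and 9 of 10 CCAAT, and among replication windows 3 of 10 had E2F letters. These matches are a description of letters and were not set against the fold changes in a test.

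Of the cell cycle transcription factors, 0 of 2 were called by edgeR (0 at an unadjusted p under 0.05). Foxm1, the activator of mitosis genes, had 48, 69, 35 and 46 reads and a log2 fold change of -0.13 (SE 0.37, edgeR adjusted p = 0.871), or 0.23 without WT 2 and 0.14 without labelled DDI2-KO 1. Its level followed Ccna2 in being higher in library 2 of both groups, at 2.23 against 1.43 CPM in WT and 2.00 against 1.35 CPM in labelled DDI2-KO. E2f1, which activates replication genes, had 105, 111, 92 and 75 reads, or 3.12, 3.59, 3.55 and 3.26 CPM. The groups overlapped at a log2 fold change of 0.02 (SE 0.25, edgeR adjusted p = 0.967), which was -0.03 with upper-quartile scaling, -0.07 without WT 1 and -0.04 without labelled DDI2-KO 1.

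The p53 axis and the cyclin G genes were not called either, with 0 of 4 in edgeR (2 at an unadjusted p under 0.05), 3 estimates below 0 and 1 above. Ccng2, the single one above 0, encodes an unconventional cyclin linked to cell cycle arrest. It had 432, 310, 439 and 502 reads, or 12.8 and 10.03 CPM in WT (11.4 ± 1.99, SD, n = 2) and 17.0 and 21.8 CPM in labelled DDI2-KO (19.4 ± 3.45, SD, n = 2), with no overlap. Its log2 fold change was 0.76 (SE 0.21, unadjusted p = 0.00640, edgeR adjusted p = 0.0862). In edgeR the adjusted p was 0.0114 when no gene was filtered out and 0.0333 with the offsets for GC content and length, chosen after seeing the data, within a range of 0.0114 to 0.370 over the alternatives.

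Its paralog Ccng1, a p53 target, went the other way, with 1541, 1217, 736 and 811 reads, or 45.8 and 39.4 CPM (42.6 ± 4.56, SD, n = 2) in WT and 28.4 and 35.3 CPM (31.8 ± 4.85, SD, n = 2) in labelled DDI2-KO. Both WT libraries were above the others, at a log2 fold change of -0.42 (SE 0.18, unadjusted p = 0.0447, edgeR adjusted p = 0.203). Trp53, the gene of p53, had 853, 843, 562 and 443 reads, or 25.4, 27.3, 21.7 and 19.3 CPM, also without overlap. Its log2 fold change was -0.36 (SE 0.16, edgeR adjusted p = 0.229). Mdm2, whose product degrades p53, had 727, 642, 421 and 467 reads and a log2 fold change of -0.21 (SE 0.18, edgeR adjusted p = 0.514). The groups of Mdm2 did not overlap, but by a narrow gap of 20.3 CPM in labelled DDI2-KO 2 to 20.8 CPM in WT 2.

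Beyond the list, 140 other cell cycle genes were taken in 5 lists, of which 135 passed the filter. Of these 135, edgeR called 2 higher and 1 lower (against 1.33% and 1.20% of all genes), with 68 estimates above 0 and 67 below and a median log2 fold change of 0.01. At an unadjusted p under 0.05 in edgeR, 17 were higher and 7 lower (against 12.0% and 11.5% of all genes). In 43 both labelled DDI2-KO libraries were above WT and in 27 both were below (against 28.0% and 27.7%). The count of 3 calls was 4 with DESeq2 (against 6.86% of all genes), 1 with limma-voom (0.993%) and 0 with limma-trend (1.01%). In edgeR it was 2 with upper-quartile scaling (against 317 of 13699 genes) and 2 with a filter at a mean of 1 CPM (285 of 11974). Without robust estimation it was 1 (against 152 of 13699 genes). It was 9 without a filter on low counts (against 1544 of 21099) and 6 with the GC content and length offsets (829 of 13699). Leaving out WT 1 gave 0 calls, WT 2 gave 1 (Btg2), labelled DDI2-KO 1 gave 1 (Orc5) and labelled DDI2-KO 2 gave 3 (Ccnl1, Rbbp4 and Tfdp2).

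Btg2 (ENSMUSG00000020423, minus strand of chromosome 1, 134075170 to 134079120) is a p53 target that slows the cell cycle. It had 397, 577, 988 and 1304 reads, or 11.8 and 18.7 CPM in WT (15.2 ± 4.85, SD, n = 2) and 38.2 and 56.7 CPM in labelled DDI2-KO (47.4 ± 13.1, SD, n = 2). WT lay lower in each library, and Btg2 rose by a log2 fold change of 1.64 (SE 0.28, edgeR adjusted p = 0.0404). The edgeR adjusted p was 0.0804 without WT 1, 0.0609 without labelled DDI2-KO 1 and 0.0893 without labelled DDI2-KO 2, and limma-trend gave an adjusted p of 0.0506, within a range of 3.25e-06 to 0.0893 over the alternatives.

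Rbbp4, a histone-binding subunit of the DREAM complex and of several chromatin complexes, rose too. It had 2344, 2399, 3342 and 2849 reads, or 69.7 and 77.6 CPM in WT and 129 and 124 CPM in labelled DDI2-KO, and its log2 fold change was 0.78 (SE 0.16, edgeR adjusted p = 0.0489). Genes on the opposite strand overlap 18.0% of its exon bases. Tfdp2, a partner that E2F factors need to bind DNA, fell. It had 849, 771, 335 and 322 reads, or 25.2 and 24.9 CPM in WT and 12.9 and 14.0 CPM in labelled DDI2-KO, and its log2 fold change was -0.90 (SE 0.16, edgeR adjusted p = 0.0406). For both genes the groups stood clearly apart. Without WT 1, WT 2 or labelled DDI2-KO 1 the edgeR adjusted p was 0.256, 0.140 and 0.0627 for Rbbp4 and 0.165, 0.127 and 0.0522 for Tfdp2. Over the alternatives it ranged from 0.00252 to 0.256 for Rbbp4, above 0.05 also with limma-voom, limma-trend, upper-quartile scaling, a filter at 1 CPM and no robust estimation. For Tfdp2 it ranged from 0.00137 to 0.165, above 0.05 also with limma-voom, limma-trend and no robust estimation.

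By list, the other G1 regulators had 18 of 20 genes past the filter and 0 called in edgeR (4 at an unadjusted p under 0.05), with a median log2 fold change of -0.17. Myc, which drives cell growth and entry into the cycle, was the farthest from 0 there, with 144, 136, 59 and 48 reads and a log2 fold change of -0.99 (SE 0.26, edgeR adjusted p = 0.0749). Its edgeR adjusted p was 0.0303 without a filter on low counts and 0.0361 with the GC content and length offsets, within a range of 0.0303 to 0.269 over the alternatives. Cdkn1a, the p53 target that encodes the inhibitor p21, had 105, 94, 84 and 138 reads, or 3.12, 3.04, 3.24 and 6.00 CPM. Only labelled DDI2-KO 2 stood clearly above the other libraries, and the log2 fold change of Cdkn1a was 0.58 (SE 0.32, edgeR adjusted p = 0.314), from 0.08 to 0.96 when a library was left out. The other E2F and DREAM factors, 15 of 16 past the filter, hold both Rbbp4 and Tfdp2 and had a median of 0.16. The p53 target genes, 21 of 21 past the filter, had 1 call, Btg2 (against 1.33% of all genes called higher), with 14 estimates above 0 and 7 below and a median of 0.27. Over all genes 6672 estimates were above 0 and 7027 below, with a median of -0.01. Both labelled DDI2-KO libraries were above WT in 10 of the 21 p53 target genes and below in 1, against 28.0% and 27.7% of all genes. At an unadjusted p under 0.05 in edgeR, 4 of the 21 were higher and 0 lower (against 12.0% and 11.5% of all genes).

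Other replication genes, 43 of 44 past the filter, had 0 calls in edgeR and a median log2 fold change of 0.07. Of their estimates 25 were above 0 and 18 below. At an unadjusted p under 0.05 there were 10 (against 23.5% of all genes), 8 higher and 2 lower (against 12.0% and 11.5%). In 18 of the 43 both labelled DDI2-KO libraries were above WT and in 9 both were below, against 28.0% and 27.7% of all genes. Cdc7, the kinase that fires origins, was farthest from 0 with 12, 17, 6 and 3 reads and a log2 fold change of -1.28 (SE 0.62, edgeR adjusted p = 0.252). Other mitosis genes, 39 of 40 past the filter, had 0 calls in edgeR (3 at an unadjusted p under 0.05, all lower, against 11.5% of all genes) and a median of -0.22, with 14 estimates above 0 and 25 below. Cenpf, a kinetochore protein, had 29, 27, 7 and 9 reads there and a log2 fold change of -1.39 (SE 0.47, edgeR adjusted p = 0.130). Both labelled DDI2-KO libraries were above WT in 8 of these 39 genes and below in 9, Cenpf among them, against 28.0% and 27.7% of all genes. Genes that failed the filter had few reads in each library: 2, 1, 4 and 0 for Cdkn2a, 8, 4, 5 and 4 for Cdkn2b, 7, 11, 7 and 8 for Mybl2, 1, 3, 5 and 2 for Orc1, and 4, 2, 3 and 4 for Cdc25c. Mybl2 encodes B-MYB.

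**Figure D5:**
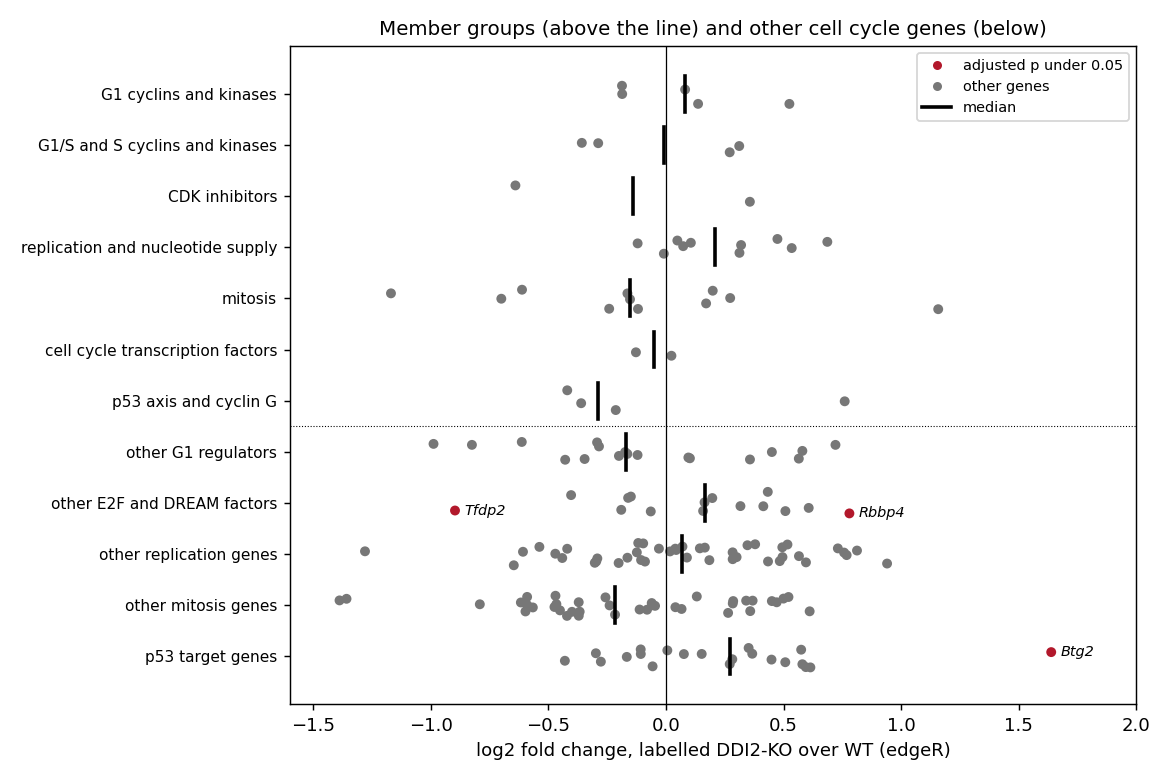
Log2 fold change, labelled DDI2-KO over WT, of each gene past the filter, in 7 role groups of the 38 members above the dotted line and in 5 lists of other cell cycle genes below it; bars mark medians. Red points are the 3 genes with an edgeR adjusted p under 0.05, and all 3 are in the lists below the line; the replication medians are 0.21 and 0.07 and the mitosis medians -0.15 and -0.22.

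Counts of low genes set a limit on these comparisons. Of the 38 members 11 had under 100 reads in every library, and 4 had a mean under 1 CPM. Alignments to more than 1 place in the genome, which the deposited counts leave off genes, equalled 65.8% of the reads on genes in WT 1, 51.8% in WT 2, and 49.2% and 47.3% in labelled DDI2-KO 1 and 2. In 9 members more than 10% of the 50-base stretches of the longest transcript occur in other annotated genes. Overlap with a gene on the opposite strand covers 23.4% of the exon bases of Ccnd1 (LTO1), 19.7% of Cdk4 (Tspan31), 17.4% of Ccne2 (Ints8) and 12.5% of Ccna2 (Exosc9). The strand setting of the counting is not given, so reads from such partners could not be told apart.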

How the data were processed

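The deposited values are raw counts made by the authors for Ensembl genes, 1 set per library, with no normalization. The submitters' processing notes name cutadapt 1.8, STAR 2.5.2b, HTSeq 0.6.1 and GRCm38 without saying what each was used for. The annotation release and the strand setting are not given in the sources used here. Reads on no gene equalled 5.11%, 4.70%, 2.53% and 3.65% of the gene reads of WT 1, WT 2 and labelled DDI2-KO 1 and 2, and reads on more than 1 gene 2.496%, 2.54%, 3.49% and 3.66%; both were left out of the counts. Symbols and positions are from GENCODE M21 and matched 48349 of 48709 identifiers.

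All tests used edgeR 4.0.16 (R 4.3.3) on all 4 libraries with TMM factors, filterByExpr, robust quasi-likelihood fits and no covariate. P-values were adjusted by the Benjamini-Hochberg method over 13699 genes. The SE is the log2 fold change divided by the root of F, and the 95% interval uses the fit's degrees of freedom. Alternatives were RLE, upper-quartile and library-total scaling, DESeq2 1.42.0, limma-voom and limma-trend (limma 3.58.1, prior count 2), no filter, a filter at a mean of 1 CPM, fits that were not robust, a replicate block and leaving out each library. Offsets for GC content and length (lowess span 0.3) were chosen after seeing the data, in which the log2 ratio of library 2 to library 1 had a Spearman correlation with GC content of -0.481 for the pair labelled DDI2-KO and 0.0683 for the WT pair. The cause of this was not tested. The fits were tested on simulated data.

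The 38 members and all lists were chosen with earlier results of these data known. Full statistics were given by rule to called members, to the 3 most abundant members by CPM of each role group and to members with an unadjusted p under 0.05. Called genes and the gene with the largest absolute log2 fold change of each other list were added, with Ddi2 and Cdkn1a. Bub1, Birc5, Mcm6, Mcm4, Tyms and Stab2 were described further after their values were seen. The libraries of a group do not hold the same counts, so each was used as a sample of its own. Cadmium-treated mice, cell lines and protein assays were not analysed here.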

Additional observations from a re-analysis of the deposited data

Results flagged for a closer look

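Reads that fell on more than 1 gene are in no comparison, and they stood out because their share was larger in both libraries labelled DDI2-KO than in both control libraries. They equalled 3.49% and 3.66% of the reads on genes in labelled DDI2-KO 1 and 2, against 2.496% and 2.54% in WT 1 and 2. Which genes these reads came from is not in the deposited counts.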

How the results depend on the processing

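In the edgeR fits, the count of members called higher was 0 and went to 1 with DESeq2, and to 2 without a filter on low counts, with the replicate block and with the GC content and length offsets, which were chosen after seeing the data. The count called lower was 0 in every alternative except that without labelled DDI2-KO 2 it was 1; leaving out libraries gave 0 called higher and 0 to 1 called lower. Over all genes, 346 calls became 940 with DESeq2, 136 with limma-voom, 139 with limma-trend, 1544 without a filter, 152 without robust estimation, 1108 with the replicate block and 829 with the offsets, and 153 to 631 when libraries were left out (153 without WT 1, 203 without WT 2, 631 without labelled DDI2-KO 2). The count of calls among other cell cycle genes, 3, was 4 with DESeq2, 2 with upper-quartile scaling, 2 with a filter at a mean of 1 CPM, 1 with limma-voom, 0 with limma-trend, 9 without a filter, 1 without robust estimation and 6 with the offsets. It was 0 to 3 without a library, and not always of the same genes (Orc5 alone without labelled DDI2-KO 1, and Ccnl1, Rbbp4 and Tfdp2 without labelled DDI2-KO 2). Of the calls 52.6% were higher with TMM, 39.7% with upper-quartile scaling (126 higher, 191 lower), 60.9% with library totals (230 higher, 148 lower) and 37.4% without WT 2 (76 higher, 127 lower). The cause was not tested.

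The member median log2 fold change of 0.04 ranged from -0.0665 to 0.16 without a library, where 0.16 without WT 2 moved by more than the replicate SD of 0.117. It was -0.02 with upper-quartile factors and -0.02 with the offsets. Signs turned for Cdk4 (-0.0001) and Mcm5 (-0.0378) with the offsets, Mcm3 with library totals (0.0396) and without a filter (0.0016), and Rrm1 (-0.0051) and E2f1 (-0.03) with upper-quartile factors. They also turned in 16 members when a library was left out, whose log2 fold changes ranged from -0.0837 to 0.24 for Cdk6, -0.65 to 0.19 for Ccne1, -0.24 to 0.67 for Ccne2, -0.93 to 0.0684 for Ccna2, -0.53 to 0.20 for Mcm2, -0.06 to 0.0456 for Mcm3, -0.0522 to 0.21 for Mcm5, -0.0305 to 0.13 for Rrm1, -0.50 to 0.80 for Ccnb2, -0.10 to 0.41 for Top2a, -0.57 to 0.19 for Cdc20, -0.16 to 0.66 for Aurka, -0.33 to 0.0856 for Aurkb, -1.06 to 0.0389 for Birc5, -0.42 to 0.23 for Foxm1 and -0.0730 to 0.13 for E2f1. The cause was not tested. For the 38 members, 401 of the other values kept their direction and side of the threshold, 7 moved past the threshold and 6 turned sign; with a library left out these were 128, 1 and 23.

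Replicate numbers in the labels share only a number: with 2 pairs, deviations of same-numbered libraries had a correlation of 0.0588, under the limit of 0.1. With the replicate block, Cdk1 and Ccng2 were called (edgeR adjusted p = 0.0157 and 0.0481), within ranges of 0.00305 to 0.297 and 0.0114 to 0.370 over the alternatives. A fit that leaves 1 library in a group assumes that it varies as the other group does. Filtering at a mean of 1 CPM left 34 members, so 4 have no value there. Few reads limit Plk1, Bub1, Ccnb1 and Ccne1 most, and 2 libraries a group limit every result.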

Other observations

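Of the sinusoidal endothelial markers, Stab2, a scavenger receptor, fell. It had 2479 reads in WT 1, 1890 in WT 2, 852 in labelled DDI2-KO 1 and 688 in labelled DDI2-KO 2. The WT mean was 67.4 ± 8.88 CPM (SD, n = 2) and the labelled DDI2-KO mean 31.4 ± 2.11 CPM (SD, n = 2), at a log2 fold change of -1.10 (SE 0.17, edgeR adjusted p = 0.0288). Without WT 1 the edgeR adjusted p was 0.109, within a range of 1.79e-05 to 0.109 over the alternatives. Lyve1 stood lower in the same libraries (22.2 and 38.9 CPM against 19.6 and 18.7 CPM), while Pecam1, Kdr, Tek and Clec4g had estimates above 0.

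WT 2 stood apart from the other libraries in H19 and Igf2, imprinted genes that are active in fetal liver. H19 had 38 reads in WT 1, 356 in WT 2, 17 in labelled DDI2-KO 1 and 10 in labelled DDI2-KO 2, and Igf2 had 17, 37, 10 and 5, with 62.8% of its exon bases shared with another gene on the same strand. Dlk1, also imprinted, had 0, 0, 0 and 2 reads. The log2 fold change of H19 was -3.51 (SE 1.41, edgeR adjusted p = 0.259), and from -4.38 to -1.04 when a library was left out. Its adjusted p did not stay above 0.05 in every alternative. Afp, the alpha-fetoprotein gene, had 43, 49, 30 and 25 reads.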
